A study of Mus musculus with 8 samples.

Results

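Ppbp, Tnfsf18, Pla2g5, Adamts16, Akr1c14, Plscr2 and Stx3 are 7 genes whose signal was lower in neural stem cells kept at low oxygen, by more than for nearly all other genes measured. They were chosen by this difference in log2 signal between 5% and 21% oxygen within same-numbered replicates. They were 7 of 37074 genes and transcripts on the array, and 11 of its 55681 probes carried an accession of one of them. The probe that stands for each gene was the brightest of its probes, and 10 of the 11 probes passed the filter on dim signal. Among 16061 tested genes with a RefSeq symbol, ordered from the lowest mean difference upward, the 7 stood at ranks 2 (Ppbp), 8 (Plscr2), 10 (Pla2g5), 11 (Tnfsf18), 12 (Adamts16), 13 (Akr1c14) and 15 (Stx3). Stx3 had a difference of -1.69 on the log2 scale, and Mup17, the gene after it at rank 16, had -1.64. Because this difference on all 8 arrays chose the genes, their own values are given as a description, with no test.

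The study set embryonic mouse neural stem cells at low oxygen against the same kind of cells at atmospheric oxygen. Cells of OF-1 embryos at E13.5 were grown in serum-free medium, from isolation onward, at 21% oxygen (called normoxia) or at 5% oxygen (called hypoxia). The labels name no genetic change and no added agent in either group. RNA was taken after at least 10 days and hybridised to 1-colour Agilent arrays, 4 per condition, from 4 experiments that each used other donors. The replicate number in the labels was taken as the experiment, and cultures of an experiment are called a pair. The labels do not say how many embryos went into a culture.

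The 7 genes have unlike roles. Ppbp encodes platelet basic protein, a CXC chemokine stored in platelet granules that draws neutrophils after it is trimmed. Tnfsf18 encodes the ligand of the costimulatory receptor GITR and sits on the surface of endothelial and antigen-presenting cells. Pla2g5 is a secreted phospholipase A2 that frees fatty acids, arachidonic acid among them, from membrane phospholipids. Adamts16 is a secreted metalloprotease of the extracellular matrix. Akr1c14 is the rodent 3-alpha-hydroxysteroid dehydrogenase, which acts on steroids such as dihydroprogesterone, and in brain this step yields neurosteroids. Plscr2 belongs to the phospholipid scramblase family. Stx3 is a syntaxin, a SNARE protein of the plasma membrane that takes part in vesicle fusion and in sorting to the apical surface.

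Low oxygen acts on many genes through hypoxia-inducible factor (HIF), a transcription factor that binds DNA at the core letters ACGTG or GCGTG and is mostly known as an activator. RefSeq promoter windows of assembly GRCm38.p6 were matched to 5 of the 7 genes, with 6 windows because Pla2g5 has 2 starts. Plscr2 and Adamts16 had no window. The 250 bases before the start of Ppbp, Tnfsf18 and Stx3 are shown. They were chosen because levels of the first 2 genes had the highest correlation across arrays and Stx3 had the most alike probes. TATAAA, the core of a TATA box, is in capitals.
Ppbp, chr5:90768268-90768517, plus strand: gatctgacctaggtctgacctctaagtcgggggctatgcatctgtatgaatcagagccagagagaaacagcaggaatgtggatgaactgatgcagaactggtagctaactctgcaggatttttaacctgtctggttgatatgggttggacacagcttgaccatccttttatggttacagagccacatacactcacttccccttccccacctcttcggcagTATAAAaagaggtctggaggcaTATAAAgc
Tnfsf18, chr1:161494407-161494656, plus strand: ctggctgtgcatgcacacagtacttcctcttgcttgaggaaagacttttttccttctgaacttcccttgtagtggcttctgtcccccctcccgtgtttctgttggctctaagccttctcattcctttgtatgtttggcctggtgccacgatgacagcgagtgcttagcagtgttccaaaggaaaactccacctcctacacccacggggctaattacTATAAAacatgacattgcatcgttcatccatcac
Stx3, chr19:11819404-11819653, minus strand: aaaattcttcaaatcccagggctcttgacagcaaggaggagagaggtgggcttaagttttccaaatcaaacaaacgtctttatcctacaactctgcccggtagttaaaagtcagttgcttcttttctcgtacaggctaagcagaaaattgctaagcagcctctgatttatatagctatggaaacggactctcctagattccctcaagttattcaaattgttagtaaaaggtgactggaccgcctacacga
In Ppbp the letters TATAAA lay at -30 to -25 and again at -8 to -3 before the start, and in Tnfsf18 at -34 to -29. They were searched on the gene's strand only and were found in 7.6% of 32851 such windows. None of the 6 upstream windows of the 5 genes held ACGTG or GCGTG on either strand, while 38.6% of all windows did. In the 50 bases after the start, Akr1c14 held GCGTG at bases 18 to 22, and Ppbp held ACGTG on the other strand at bases 34 to 38. Over whole windows of 300 bases, 43.8% held one of the cores. These are matches of letters and say nothing on whether a factor was bound.

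Of the 62976 spots on an array, leaving controls aside, between 64.4% and 73.9% stood well above background. The 75th percentile of an array was 1909 to 7352 intensity units. Levels below are log2 signal relative to that percentile of the same array, so a level of 0 is the percentile itself and a difference of -1 is a halving. Hypoxia arrays had the lower percentile in pairs 1, 2 and 4 and the higher one in pair 3. All 11 neural stem cell and radial glia markers, Nes and Sox2 among them, were well above background on all 8 arrays, and none of them passed the test for a change. The difference of a gene is hypoxia minus normoxia. The median difference of all 26868 genes tested was 0.03. Levels are not compared between genes, since probes differ in how brightly they bind.

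Ppbp had the largest difference of the 7 at the settings used here. With normexp background correction its difference was -1.48, smaller than those of Tnfsf18 (-1.71) and Stx3 (-1.60). At normoxia its log2 level in experiments 1 to 4 was -3.32, -4.33, -4.48 and -2.23, a mean of -3.59 ± 1.04 (SD, n = 4). At hypoxia it was -5.67, -7.63, -7.11 and -4.30, a mean of -6.18 ± 1.499 (SD, n = 4). The pairs differed by -2.35, -3.30, -2.63 and -2.07. The hypoxia array of experiment 4 lay above the normoxia arrays of experiments 2 and 3, so the groups overlapped. The mean difference of -2.59 ± 0.53 (SD of the 4 pairs) corresponds to a 6.02-fold higher normoxia signal. The signal was weak: on the hypoxia arrays of experiments 2 and 3 it was 24.2 ± 8.12 and 49.0 ± 18.6 intensity units (the scanner software's own error) and not well above background. On those arrays the values carry no firm order.

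Tnfsf18 was measured more firmly, with all 8 arrays well above background. Its log2 level at normoxia was -0.99, -1.70, -1.999 and -0.15, a mean of -1.21 ± 0.82 (SD, n = 4). At hypoxia it was -3.18, -3.80, -3.81 and -1.63, a mean of -3.11 ± 1.03 (SD, n = 4). The difference of -1.90 ± 0.32 (SD of the 4 pairs) was a 3.72-fold higher normoxia signal, and the pairs gave -2.19, -2.10, -1.81 and -1.48. Groups overlapped again through experiment 4, whose hypoxia array was above the normoxia arrays of experiments 2 and 3. In signal units this gene went from 6633 to 1756 in experiment 4 and from 1506 to 211.0 in experiment 1.

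Pla2g5 was read by 2 probes that did not give the same picture. The brighter one, for the transcript NM_001122954, had log2 levels of -3.09, -5.997, -5.93 and -2.67 at normoxia and of -5.83, -7.03, -8.27 and -4.20 at hypoxia. Its difference was -1.91 ± 0.77 (SD of the 4 pairs), a 3.76-fold higher normoxia signal. Its values were far apart within a group, at -4.42 ± 1.79 for normoxia and -6.33 ± 1.74 for hypoxia (SD, n = 4 each). The second probe, for NM_011110, had levels of -4.35, -5.74, -6.03 and -6.07 at normoxia and of -3.53, -6.60, -7.30 and -6.72 at hypoxia. It was higher at hypoxia in experiment 1, by 0.83, and lower in the other 3 pairs, with a mean difference of -0.49 ± 0.91 (SD of the 4 pairs). Each of the probes stood above background clearly on all 4 normoxia arrays but on just 2 hypoxia arrays, and their levels correlated at 0.365 over the 8 arrays.

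Adamts16 was one of the 2 genes whose groups did not overlap, Stx3 being the other. Of all 26868 genes tested, 446 or 1.66% had every hypoxia array below every normoxia array. Its brighter probe had log2 levels of -3.02, -4.73, -4.91 and -2.47 at normoxia, a mean of -3.78 ± 1.22 (SD, n = 4). At hypoxia the levels were -5.60, -6.44, -5.71 and -4.95, a mean of -5.68 ± 0.61 (SD, n = 4). The lowest normoxia array, of experiment 3, was just 0.041 above the highest hypoxia array, of experiment 4, so the separation was thin. The difference was -1.89 ± 0.83 (SD of the 4 pairs), 3.72-fold, and ran from -2.58 in experiment 1 to -0.80 in experiment 3. A second probe of the same transcript was not well above background on any array, at signals of 6.19 to 48.1, and gives no reading.

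Akr1c14 was well above background on all arrays and set itself apart from the other genes in experiment 1. Its log2 level at normoxia was -3.10, -3.07, -2.53 and -0.37, a mean of -2.27 ± 1.29 (SD, n = 4). At hypoxia it was -5.91, -3.80, -4.46 and -2.37, a mean of -4.14 ± 1.47 (SD, n = 4). The hypoxia array of experiment 1 was the lowest of the 8 here, whereas the lowest array of the other 6 genes came from experiments 2 or 3. The difference of -1.87 ± 0.86 (SD of the 4 pairs), 3.65-fold, came from pairs of -2.81, -0.74, -1.93 and -1.998, and the groups overlapped.

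Plscr2 was the gene least often well above background. Its log2 level was -4.31, -6.88, -6.02 and -2.29 at normoxia, a mean of -4.87 ± 2.03 (SD, n = 4), and -7.27, -7.77, -8.63 and -3.66 at hypoxia, a mean of -6.83 ± 2.19 (SD, n = 4). The SD within a group was therefore above the difference of -1.96 ± 0.99 (SD of the 4 pairs), which is 3.89-fold. It was well above background at normoxia in experiments 1, 3 and 4 and at hypoxia in experiment 4 alone, where the signal was 430.6 against 1508 at normoxia. On the other 3 hypoxia arrays the signal was 12.4, 21.9 and 17.1, with scanner errors of 5.45, 7.64 and 17.2. Experiment 4 was thus the one pair with a reading well above background at both oxygen levels, and its difference was -1.37.

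Stx3 was read by 3 probes with nearly the same difference. The brightest of its 3 probes had log2 levels of 0.48, -0.93, -0.04 and 0.03 at normoxia, a mean of -0.12 ± 0.59 (SD, n = 4), and of -1.496, -2.16, -2.25 and -1.31 at hypoxia, a mean of -1.80 ± 0.47 (SD, n = 4). All normoxia arrays lay above all hypoxia arrays, as they did for the other 2 probes. The difference was -1.69 ± 0.48 (SD of the 4 pairs) with this probe, -1.70 ± 0.46 with the probe for NM_001025307 and -1.76 ± 0.29 with the probe printed on 10 spots, or 3.22-fold, 3.24-fold and 3.38-fold. Levels of the 3 probes correlated at 0.916 to 0.979 over the 8 arrays, and all were well above background throughout. On the probe with 10 spots, the spots of an array had an SD of 0.035 to 0.104 on the log2 scale. This is spread between copies of a probe on 1 array and not between cultures, where the SD of the 4 pairs was 0.29.

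**Figure D1:**
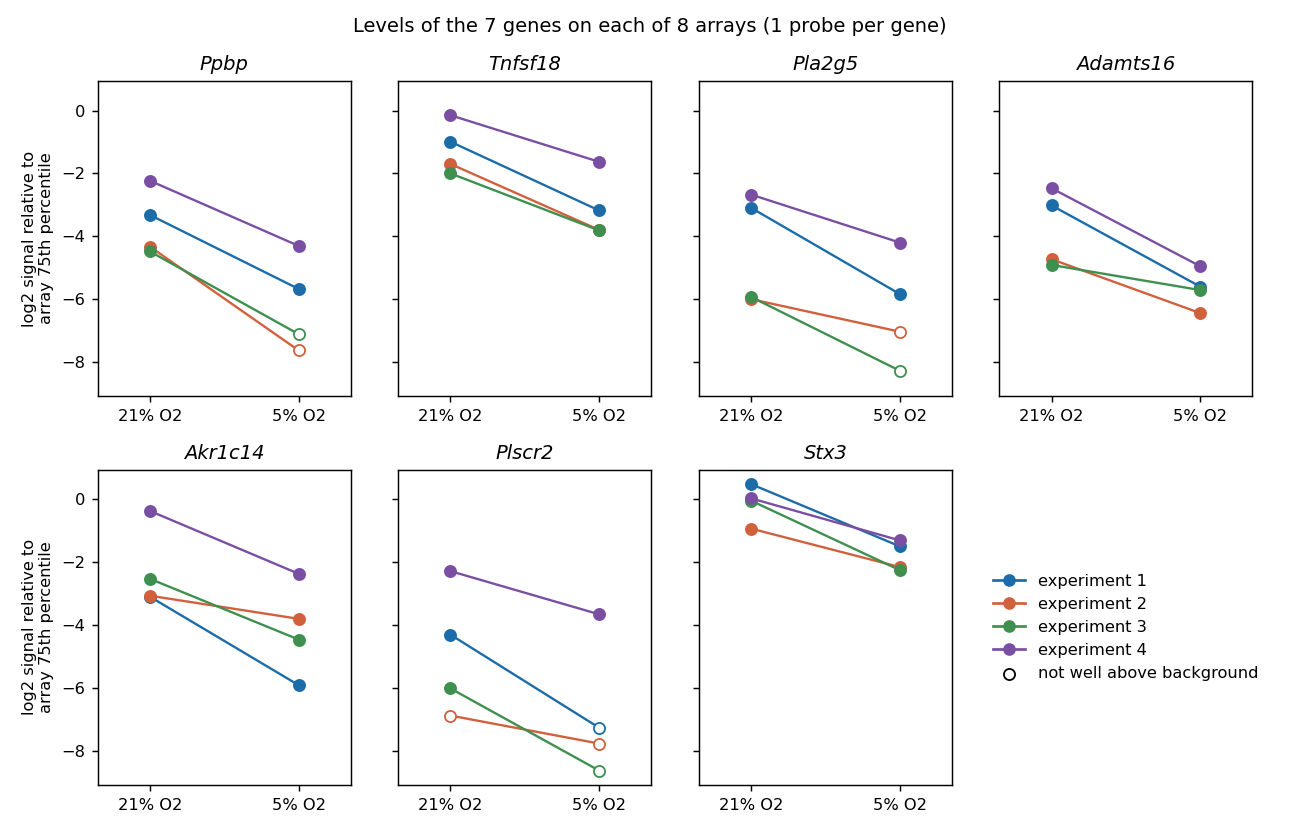
Log2 signal of the 7 genes relative to the array's 75th percentile (vertical axis) at 21% and 5% oxygen, with 1 line per experiment and open circles where the probe was not well above background. Each line runs downward, experiment 4 is the upper line in both conditions for 6 of the genes, and just Adamts16 and Stx3 have groups that do not overlap.

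Of the 11 probes, 9 were lower at hypoxia in all 4 pairs, among them the 7 by which the genes were picked, as were 3451 of all 26868 genes tested (12.8%). The other 2 were the second probes of Pla2g5 and Adamts16. The pairs differed in size. The median difference of the 7 genes was -2.58 in experiment 1, -1.22 in experiment 2, -2.21 in experiment 3 and -1.53 in experiment 4. The 1st percentile of all genes in the same pairs was -1.13, -1.39, -1.29 and -1.15. In experiment 2 the median of the 7 thus lay above that percentile, and in the other 3 pairs it lay below it. Ppbp (-3.30), Tnfsf18 (-2.10) and Adamts16 (-1.71) lay below the percentile in experiment 2 as well, and for Ppbp this was the largest of its 4 pairs.

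**Figure D2:**
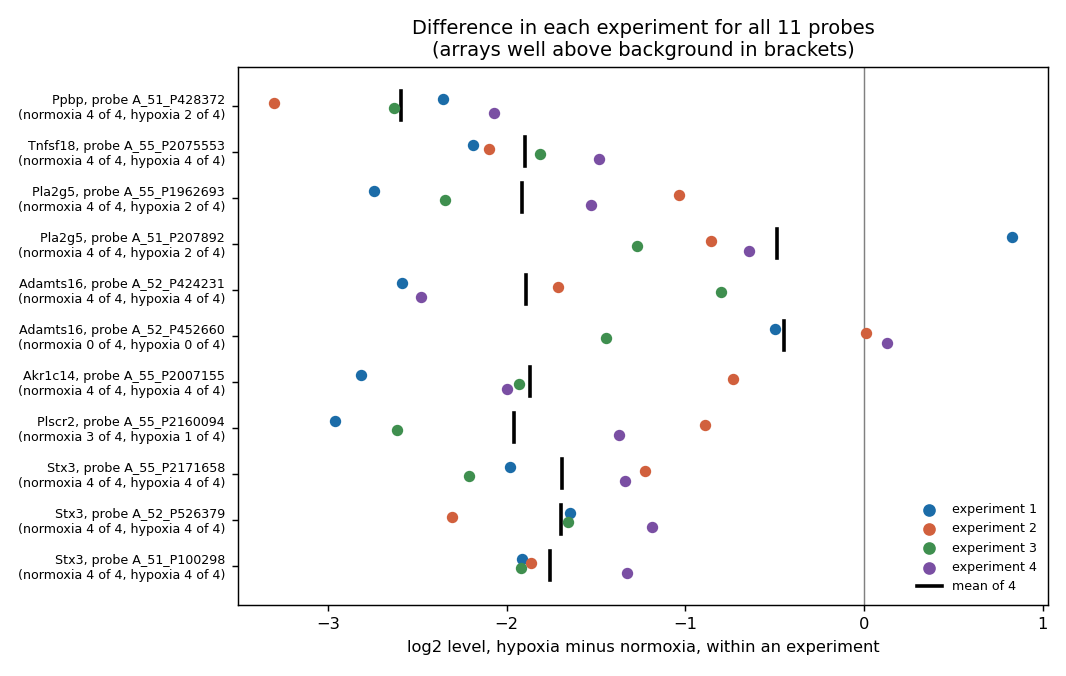
Difference in log2 level, hypoxia minus normoxia, within each of the 4 experiments (points) and its mean (bars) for all 11 probes of the 7 genes, with the arrays well above background in brackets. The 3 Stx3 probes have means between -1.76 and -1.69, while the second probe of Pla2g5 has its experiment 1 point at 0.83 and a mean of -0.49.

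Across experiments most of the 7 genes also went up and down together within a condition, Akr1c14 less closely than others. Experiment 4 had the highest level in both conditions for 6 of the 7, the exception being Stx3, whose highest normoxia array was that of experiment 1. Over 26826 genes with a value on all arrays, experiment 4 was highest in both conditions for 9.13%, and experiment 1 for 32.6%. At normoxia Plscr2 ran from -6.88 in experiment 2, where it was not well above background, to -2.29 in experiment 4. This spread was larger than its difference between the conditions. Among the 21 pairs of these genes, deviations from the group means correlated at 0.174 (Akr1c14 with Stx3) to 0.966 (Tnfsf18 with Plscr2) over the 8 arrays, with a median of 0.806. Ppbp and Tnfsf18 stood at 0.965. Plscr2 was well above background on just 3 normoxia arrays and 1 hypoxia array, so its correlations rest in part on readings near background. These correlations describe 4 experiments measured in each of 2 conditions, not 8 independent samples, and were not set beside those of other genes. The sizes of the differences did not run together in the same way: over the 4 pairs, 8 of the 21 correlations of the differences were negative. Pla2g5, Plscr2 and Akr1c14, by the probe that stands for each, had their smallest difference in experiment 2, where Ppbp had its largest. In that experiment Ppbp, Pla2g5 and Plscr2 were not well above background at hypoxia, nor was Plscr2 at normoxia. Stx3 had its smallest there on the brightest probe, but its largest (-2.30) on the probe for NM_001025307.

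**Figure D3:**
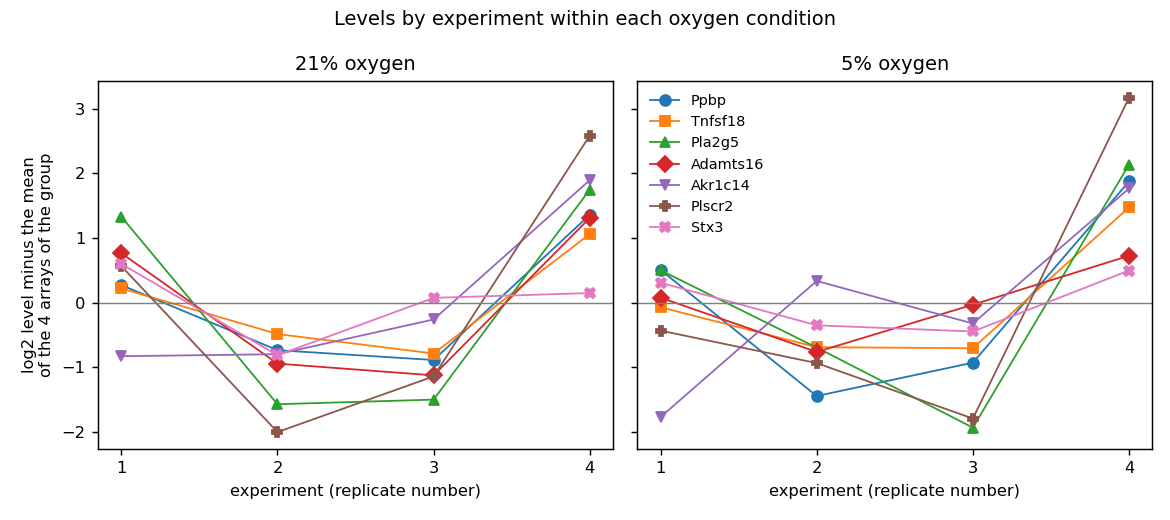
Log2 level of each of the 7 genes minus the mean of the 4 arrays of its condition (vertical axis) by experiment, at 21% oxygen on the left and 5% oxygen on the right, with lines joining the points of a gene. The experiments have no order. Experiment 4 is the highest point for 6 genes at 21% oxygen and for 7 at 5% oxygen, and Akr1c14 is lowest in experiment 1.

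Markers of other cell types differed between the experiments too. The summed level of 10 microglia and leukocyte markers, on the log2 scale, was 2.67, 1.5, 1.98 and 3.09 at normoxia in experiments 1 to 4 and 2.61, 1.62, 1.82 and 3.23 at hypoxia. That of 11 endothelial and mural markers was 2.71, 1.70, 3.30 and 3.79 at normoxia and 2.19, 1.58, 1.86 and 2.80 at hypoxia. The 9 platelet and megakaryocyte markers gave 0.06, -0.48, -0.69 and 0.09 at normoxia and -0.49, -0.85, -1.21 and -0.06 at hypoxia. In each of these 3 lists experiment 4 was highest in both conditions, as it was for 6 of the 7 genes. For platelets at normoxia its lead over experiment 1 was small. The meningeal fibroblast sum was highest in experiment 2 at normoxia and in experiment 4 at hypoxia. The neural stem cell, astrocyte, neuron and oligodendrocyte sums were highest in experiments other than 4 in both conditions. Single markers highest in experiment 4 in both conditions numbered 7 of 10 for microglia and leukocytes and 7 of 10 for meningeal fibroblasts. They numbered 4 of 11 for endothelial and mural cells, 2 of 9 for platelets and 0 of 11 for neural stem cells. For neurons the number was 2 of 10, for astrocytes 0 of 7 and for the oligodendrocyte lineage 1 of 8. The part of such cells in the levels of the 7 genes was not tested. RNA of a whole culture cannot tell fewer cells of a type from less RNA per cell.

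Between the conditions, the platelet and the endothelial and mural sums were lower at hypoxia in 4 of 4 pairs. The platelet list holds Pf4, and the sum of that list without Pf4 was not lower at hypoxia in any pair. The microglia sum was lower in 2 of 4 and the meningeal fibroblast sum in 0 of 4. In the paired limma fit described next, the endothelial genes Cldn5 (-2.35, adjusted p = 0.00565), Tek (-1.38, 0.00653) and Emcn (-1.01, 0.0272) and the mural gene Acta2 (-1.28, 0.0134) fell. Tek and Emcn were each well above background on 1 of 4 hypoxia arrays. The mural gene Pdgfrb rose (1.54, 0.00182). The unpaired fit called none of these 5, and differences of Pecam1 (0.08), Kdr (-0.10) and Vwf (0.25), which also mark endothelium, did not pass. The fibroblast list was split gene by gene. By the paired fit Ogn (-2.14, adjusted p = 0.0158) and Foxc1 (-0.96, 0.0181) fell. Col1a1 (1.04, 0.047), Col1a2 (1.83, 0.00182), Col3a1 (1.4, 0.00465) and Dcn (1.25, 0.0158) went up past the threshold. The remaining genes of that list did not pass, and the unpaired fit called none of the list. Among platelet genes Pf4 fell, while Itga2b (0.19), Gp1bb (0.04) and Itgb3 (0.40) did not pass. Gp1ba was not well above background on any array, and Gp9 was on 2 normoxia arrays and 1 hypoxia array. Their part in the difference of Ppbp or Tnfsf18 was not tested.

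Relatives of the 7 genes were tested with limma over all 26868 genes, with Benjamini-Hochberg adjustment, in a fit with 1 mean per condition (unpaired) and in a fit with the experiment as a block (paired). In the unpaired fit 24 genes rose (0.0893%) and 0 fell (0%), and 643 were lower at an unadjusted p under 0.05. With 26868 genes tested, chance alone passes many genes at that unadjusted threshold, so the 643 are no sign of falls. In the paired fit 1141 rose (4.25%) and 347 fell (1.29%). Of 147 relatives listed, 141 had a matched probe on the array, and 114 of these were bright enough to test. In the unpaired fit 1 of them rose and 0 fell, 7 being lower at an unadjusted p under 0.05. In the paired fit 5 rose and 9 fell. Their median difference was 0.06, beside 0.03 for all genes, and 47 of 114 were lower, beside 12299 of all 26868. Below, "rose" and "fell" refer to the paired fit unless the unpaired one is named.

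Among CXC chemokines and their receptors, 1 of 13 tested rose and 3 fell. Pf4, platelet factor 4 and the gene next to Ppbp, fell by 1.10 (SE 0.19, adjusted p = 0.0155), a 2.14-fold lower signal. Its log2 level was -0.54, -1.32, -1.67 and -0.64 at normoxia and -1.73, -2.50, -3.23 and -1.11 at hypoxia, so it too was higher in experiments 1 and 4. Cxcl5, a neutrophil chemokine on the other side of Ppbp, fell by 0.84 (SE 0.16, adjusted p = 0.0231), a call lost with the block as a random effect (adjusted p = 0.172). Ackr3, a scavenging receptor that takes up Cxcl12, fell by 0.85 (SE 0.16, adjusted p = 0.0218). Cxcl1, a further neutrophil chemokine 2 tested genes from Ppbp, rose by 1.90 (SE 0.24, adjusted p = 0.00479). At normoxia 2 of the 4 arrays had its signal well above background. With dim spots set to a floor this difference was 1.02 and did not pass (adjusted p = 0.0707), and with normexp background correction it was 0.78 and passed (0.0142). Of the receptors for Ppbp, Cxcr1 had a difference of 0.14 that did not pass and Cxcr2 was too dim to test. The unpaired adjusted p was 0.428 to 0.851 for these 4 genes. Calls were lost in the paired fit for Pf4 without pair 1, 2 or 3 (0.0601, 0.0655 and 0.0960), for Cxcl5 without 1 or 3 (0.120 and 0.121), for Ackr3 without 1, 2 or 3 (0.114, 0.0702 and 0.0615) and for Cxcl1 without 3 (0.0599).

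In the TNF superfamily 1 of 11 genes rose and 1 fell. Eda, ectodysplasin, a ligand known from hair and tooth development, fell by 1.21 (SE 0.14, adjusted p = 0.00357), 2.31-fold. Its log2 level was 0.19, -0.04, -0.08 and 1.05 at normoxia and -1.18, -1.32, -1.29 and 0.07 at hypoxia. Tnfsf9, the ligand of the costimulatory receptor 4-1BB, rose by 1.31 (SE 0.14, adjusted p = 0.00328), 2.48-fold, and was the relative that passed in the unpaired fit as well (adjusted p = 0.0383). Its level was between -0.23 and 0.02 at normoxia and between 1.06 and 1.58 at hypoxia. Both passed in all 14 settings of the paired fit that were tried. Tnfrsf18, the receptor for Tnfsf18, differed by -0.13 (adjusted p = 0.841).

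Of 17 phospholipases A2 and early enzymes of prostaglandin and leukotriene synthesis, 3 rose and 1 fell. Ptgs2, the inducible cyclooxygenase that turns arachidonic acid into prostaglandin precursors, rose by 2.08 (SE 0.45, adjusted p = 0.0376), 4.22-fold, from a signal that 1 of the 4 normoxia arrays had well above background. Pla2g4a, the cytosolic phospholipase A2 that acts inside the cell on the same lipids, rose by 0.93 (SE 0.18, adjusted p = 0.0255). Pla2g3, a secreted form, rose by 0.82 (SE 0.14, adjusted p = 0.0179). Pla2g4c fell by 0.89 (SE 0.17, adjusted p = 0.0230) and, like Pla2g5, cleared the background on 2 hypoxia arrays. That call was lost with the block as a random effect (adjusted p = 0.202). The unpaired fit called none of them. The calls of Ptgs2 and Pla2g4c were lost without pair 1, 2 or 3 (adjusted p 0.0565 to 0.204 and 0.0825 to 0.125), that of Pla2g4a without 2 or 3 (0.0889 and 0.138), and that of Pla2g3 without 1 or 3 (0.105 and 0.0634). Ptgs2 differed by 1.25 with dim spots set to a floor and did not pass (0.0831), nor did it with quantile normalization (0.0655), and with normexp background correction it was 0.93 and passed (0.0184). With normexp background correction Pla2g4c differed by -0.33 and did not pass (0.251).

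Of 21 ADAMTS proteases and ADAMTS-like proteins, 0 rose and 1 fell, and 9 were lower. Adamts8 fell by 1.24 (SE 0.18, adjusted p = 0.00811), 2.36-fold. Its levels were -0.73, -1.91, -1.75 and 0.58 at normoxia and -2.28, -2.69, -2.77 and -1.03 at hypoxia, so that experiment 4 was again the highest and experiment 1 the next. The call was lost without pair 3 (adjusted p = 0.0552). With the mean over its probes Adamts8 differed by -0.68 and still passed (adjusted p = 0.0239).

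Of 14 aldo-keto reductases and steroid 5-alpha-reductases, 0 rose and 3 fell. Akr1b7 fell by 0.89 (SE 0.19, adjusted p = 0.0365). Akr1c12 fell by 0.73 (adjusted p = 0.0408) and Akr1c13, which lies 2 tested genes from Akr1c14, by 0.66 (SE 0.14, adjusted p = 0.0357). Akr1c12 and Akr1c13 are close copies of one another, and their probes may not tell them apart. Srd5a1, the 5-alpha-reductase that makes the substrate of Akr1c14 in the neurosteroid route, differed by 0.10 and did not pass. Akr1b7 and Akr1c13 lost their call whichever pair was left out (adjusted p 0.0527 to 0.118 and 0.0726 to 0.198), and Akr1c12 lost it without pair 1, 3 or 4 (0.197, 0.143 and 0.0861). With normexp background correction Akr1c12 differed by -0.37 and did not pass (adjusted p = 0.194).

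None of the 12 scramblases and flippases passed in either direction, and 3 were lower. The 3 other scramblase genes tested were Plscr1 (-0.20), Plscr3 (0.02) and Plscr4 (0.19). The smallest p in this family belonged to the flippase Atp8a2 (0.44, adjusted p = 0.138) and to Tmem30a, the shared flippase subunit (0.26, adjusted p = 0.427). None of 26 syntaxins and SNARE partners passed either, and 10 were lower. Stxbp5, which encodes a syntaxin-binding protein, differed by 0.43 (adjusted p = 0.139).

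**Figure D4:**
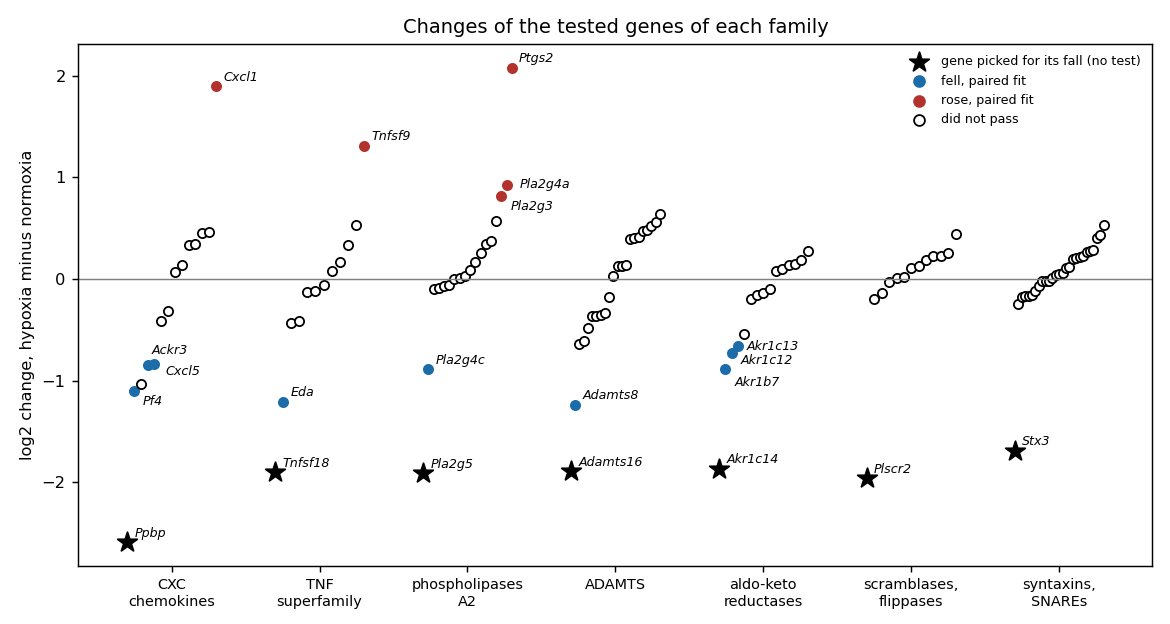
Log2 difference, hypoxia minus normoxia, of every tested gene (points) in the 7 families, with the 7 picked genes as stars, which carry no test. Filled points passed in the paired fit, 5 rising and 9 falling. Each star is the lowest point of its family, which follows from how the genes were picked.

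Neighbours on the chromosome were taken as the nearest 2 tested protein-coding genes on each side, 28 in all, a choice made after the other results were known. Of these 2 rose and 3 fell, 18 were lower, and the median difference was -0.20. Of all 26868 genes tested, 4.25% rose, 1.29% fell and 12299 were lower, with a median of 0.03. The 3 that fell were Cxcl5 and Pf4 beside Ppbp and Akr1c13 near Akr1c14. The genes that rose were Cxcl1, near Ppbp, and Plod2, a collagen lysyl hydroxylase near Plscr2, which rose by 1.17 (SE 0.19, adjusted p = 0.0120; 0.0955 without pair 3). Thus 3 of the 4 neighbours of Ppbp passed, in unlike directions. None of the 16 neighbours of Tnfsf18, Pla2g5, Adamts16 and Stx3 passed. Fasl, next to Tnfsf18 and of the same superfamily, differed by -0.41 (adjusted p = 0.314), and Pla2g2d, Pla2g2e and Pla2g2f, next to Pla2g5, differed by 0.26, 0.03 and 0.01.

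The genes whose levels were most alike over the 8 arrays were all lower at hypoxia in their means. This direction follows from the choice, since they were picked for likeness to genes that were themselves picked for their fall. Their likeness is Pearson's r over 8 arrays, the highest among RefSeq-named genes, and so is high by choice. For Ppbp they were Dkc1 (0.988), Ippk (0.986) and Ccdc92 (0.985), and for Tnfsf18 Ippk (0.997), Cpsf4l (0.991) and Eda (0.986). For Pla2g5 they were Pprc1 (0.997), Bace2 (0.981) and Ubfd1 (0.978), and for Adamts16 Dtna (0.975), Stat4 (0.968) and Gpr180 (0.966). Akr1c14 was most alike Nacc2 (0.993), Slco3a1 (0.993) and Trmt10c (0.991), and Plscr2 was most alike Pkd2 (0.992), Grpr (0.987) and Cadps (0.984). Stx3 had the least alike partners, Kbtbd6 (0.956), Zfp207 (0.955) and Scn11a (0.955). Ippk, an inositol phosphate kinase gene and the one shared by 2 of the 7, ran from 0.38 to 0.81 at normoxia and from -0.01 to 0.50 at hypoxia, a difference of -0.42 where that of Tnfsf18 was -1.90. Pkd2 had a difference of -0.10. Of these genes, Cpsf4l (-1.30, adjusted p = 0.00465), Eda, Stat4 (-1.01, 0.0361), Scn11a (-0.93, 0.0266) and Dtna (-0.85, 0.0227) passed in the paired limma fit and none in the unpaired one. These tests are not independent of the choice, since the same arrays gave the likeness. Stat4 was well above background on just 1 of 4 hypoxia arrays, so its difference rests on readings near background.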

How the data were processed

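RNA of 4 normoxia and 4 hypoxia cultures, whose integrity number exceeded 7 per the labels' protocols, was labelled with Cy3 and hybridised to 8 one-colour arrays on 1 slide. Per the submitters' processing notes, the software behind the deposited intensity values was Agilent Feature Extraction, version 10.7.3.1; they are signals after background subtraction, per the file headers. The authors' deposited log2 value table, used as an alternative, held the same signals less each array's 75th percentile and each probe's median.

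Here log2 signal was analysed relative to the 75th percentile of an array's spots other than controls, without outlier spots (4 spots of the probes reported were such) and with spots of a probe averaged. A probe was kept when well above background on at least 3 of 4 arrays of a group (37662 of 55681), and the brightest stood for a gene. RefSeq symbols matched by accession for 27235 probes. limma 3.58.1 in R 4.3.3 fitted 1 mean per group, or added the replicate number as a block, with a threshold of 0.05. Same-numbered arrays deviated together across 26826 genes (r of 0.76, 0.51, 0.38 and 0.66, against at most 0.31 with another number), so the numbers were taken as pairs; each experiment had its own donors per the series text. The procedure was tested on simulated arrays. Genes named were all members with every probe, and per family up to 4 past the threshold, else the 2 with the smallest p. Some genes that this rule names are not reported here. The 7 genes and all lists were chosen with earlier results of these data known. Alternatives covered background correction, scaling, filters, probe choice, spot flags, moderation, the block and left-out arrays or pairs. Precision was limited by 4 arrays per group.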

Additional observations from a re-analysis of the deposited data

Results flagged for a closer look

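One value of the 7 genes was set off from its group. On the Stx3 probe printed on 10 spots, experiments 1 to 3 had differences of -1.91, -1.87 and -1.92, and experiment 4 had -1.324. The gap from experiment 4 to the nearest other was 0.909 of the whole range, above the limit of Dixon's test for 4 values. Chance gives such a gap in about 1 of 20 sets, and 30 sets were tested, of which this was the 1 found. The brightest Stx3 probe had -1.34 in experiment 4 and -1.22 in experiment 2, and the third probe -1.19 in experiment 4, so experiment 4 was the smallest difference on 2 of the 3 probes.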

How the results depend on the processing

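The median difference of the 7 genes, -1.90, ran from -2.46 to -1.43 over 19 alternatives, and no gene changed direction in any of them. With normexp background correction Ppbp moved to -1.48, Pla2g5 to -0.93 and Plscr2 to -0.82, and Plscr2 was -1.07 with dim spots set to a floor. Without hypoxia replicate 4, Ppbp was -3.21, Tnfsf18 -2.39 and Plscr2 -3.02. Without normoxia replicate 4, Tnfsf18 was -1.54, Plscr2 -1.10, Akr1c14 -1.24 and Pla2g5 -1.33. With the mean over probes Pla2g5 was -1.20. Stx3 stayed between -1.96 and -1.49. For genes near background, signal over background on the hypoxia arrays limits the size of the difference.

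Counts of relatives and of all genes depended on the block. With the replicate number as a block, relatives past the threshold went from 1 to 5 rising and from 0 to 9 falling, and all genes from 24 to 1141 rising and from 0 to 347 falling. As a random effect the block gave 6 and 8 relatives and 1171 and 353 genes. In the unpaired fit, 0 relatives and 0 genes rose where arrays were quantile normalized, where they were scaled by the median or where dim probes were kept. Normexp correction gave 1 falling gene. Probes well above background on all arrays gave 49 rising and 2 falling genes, and trend with robust moderation 100 and 3. Leaving out 1 array gave 0 to 1 rising relatives, 0 to 54 rising genes and 0 to 3 falling genes. At an unadjusted p under 0.05, those fits held 1549 to 3015 genes, counts that include the many genes passed by chance. In the paired fit with dim probes kept, chosen after seeing the data, 2 relatives rose (Cxcl1 and Tnfsf9) and 2 fell (Adamts8 and Eda), beside 379 and 71 of all genes. Leaving out 1 pair gave 1 to 5 rising and 1 to 8 falling relatives, and 329 to 1082 rising and 60 to 367 falling genes. Without pair 3 the counts were lowest, at 1 and 1 relatives and 329 and 60 genes. Among the paired calls, Cxcl5 (adjusted p = 0.172) and Pla2g4c (0.202) were also lost with the block as a random effect. Median scaling and quantile normalization moved the median of all genes from 0.03 to -0.03 and -0.02.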
